A study of Mus musculus with 10 samples.

Results

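Glutamate, GABA and glycine act on receptors built from a large set of subunit genes, and 52 such genes were followed in NG2+ and GFAP+ cells of the embryonic mouse dorsal brain. They were taken by gene symbol and a protein-coding biotype from the 53801 genes of the deposited table, a rule that uses no measured value. The family was, however, chosen with earlier results of these data known. The 26 glutamate receptor genes comprise 4 AMPA, 7 NMDA, 5 kainate, 2 delta and 8 metabotropic genes. The other 26 comprise 19 GABA-A, 2 GABA-B and 5 glycine receptor genes.

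AMPA, NMDA and kainate receptors are cation channels opened by glutamate, and each is assembled from several subunits. GABA-A and glycine receptors are chloride channels. They let chloride leave many immature neurons, because these cells hold more of it than mature ones, so GABA can depolarise them. Metabotropic glutamate receptors and GABA-B receptors signal through G proteins. In the developing cortex these receptors are present before synapses form, on progenitors as well as on young neurons, and are known for effects on proliferation and migration.

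The 10 libraries came from wild-type mice whose dorsal brain had been electroporated in utero with StarTrack, a set of reporter plasmids for tracing the progeny of targeted cells, at embryonic day 12. At embryonic day 14 the tissue was dissociated, and 5 libraries were made from cells sorted as NG2+ and 5 from cells sorted as GFAP+, all in batch 1 of the labels. The promoters that drive the reporters, the sex and strain of the animals, and whether libraries came from separate embryos or litters cannot be read from the labels, so p-values measure only the spread between these libraries. Comparing the populations asks whether cells sorted by these 2 glial labels differ in the genes they express.

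Totals ran from 12945436 to 17569730 counts. The sorted marker Cspg4, which encodes NG2, had 513 reads in the NG2 libraries and 80 in the GFAP libraries, whereas Gfap had 6 and 10 reads and so could not check the other label. The labels call the cells neural stem cells. The 9 radial glia markers were all detected, with summed levels of 396 to 811 FPKM in the NG2 and 605 to 955 FPKM in the GFAP libraries, but 8 markers of projection neurons summed to 1987 to 2971 FPKM in NG2 and 1642 to 2040 FPKM in GFAP libraries. Of these 8, Tubb3, Stmn2 and Rtn1 are expressed by neurons of other types too. Tubb3 averaged 873 FPKM in NG2 and 680 FPKM in GFAP libraries. FPKM is the read count per kilobase of gene, scaled for sequencing depth, and it allows levels of different genes to be compared. All 8 projection neuron markers had positive log2 fold changes (median 0.35) and all 9 radial glia markers negative ones (median -0.45), with 0 of either list past edgeR's adjusted threshold, 6 and 4 at an unadjusted p under 0.05, and 3 and 2 called by DESeq2. Over all tested genes, edgeR's adjusted threshold was passed by 0.148% and an unadjusted p under 0.05 was held by 12.8%. DESeq2 called 2.61% of the genes to which it gave an adjusted p. Markers of intermediate progenitors, 5 of 6 with negative fold changes, summed to 659 to 762 FPKM in NG2 and 781 to 950 FPKM in GFAP libraries, without overlap. Of the other lists, the 5 tested markers of Cajal-Retzius cells, an early-born neuron type of the cortical surface, all had negative fold changes (median -1.28), 4 of them at an unadjusted p under 0.05. Their list summed to 1.31 to 3.70 FPKM in NG2 and 2.82 to 8.28 FPKM in GFAP libraries. Markers of meningeal fibroblasts were likewise negative in 5 of 5 (median -1.21), with sums of 0.382 to 1.94 FPKM in NG2 and 0.964 to 2.35 FPKM in GFAP libraries. Markers of inhibitory interneurons, 4 of 8 positive, summed to 16.7 to 53.9 FPKM in NG2 and 27.3 to 48.2 FPKM in GFAP libraries, and those of microglia, 7 of 7 positive (median 0.95), to 11.8 to 161 FPKM in NG2 and 18.01 to 79.2 FPKM in GFAP libraries. Markers of erythroid cells summed to 318 to 649 FPKM in NG2 and 312 to 582 FPKM in GFAP libraries. Those of oligodendrocyte precursors summed to 0.333 to 3.94 FPKM in NG2 and 1.48 to 2.78 FPKM in GFAP libraries. Astrocyte markers summed to 1.80 to 7.45 FPKM in NG2 and 1.94 to 3.03 FPKM in GFAP libraries. Endothelial markers summed to 0.00413 to 7.50 FPKM in NG2 and 0.987 to 6.71 FPKM in GFAP libraries. No marker of these lists was at 0 in all libraries. Their part in the receptor values below was not tested. In these bulk libraries, fewer cells of a type and less RNA per cell cannot be told apart.

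NG2 replicate 5 and GFAP replicate 2 stood apart. NG2 replicate 5 had reads for 18903 genes, while the other libraries had 22988 to 24444, and for 34 of the 52 receptor genes, while the others had 44 to 47. Among 20 receptor genes that had reads but averaged 20 or fewer per library, it had reads for 6 and the others for 15 to 18. GFAP replicate 2 gave 0.0668% of its reads to receptor genes, the lowest share of all libraries, the others lying between 0.0994% and 0.126%. It also had the lowest projection neuron sum and the highest radial glia sum.

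AMPA subunits and the kainate subunits Grik1 and Grik2 have a glutamine codon at the same pore-lining position, which bears on calcium permeability. This codon is CAA in Gria4 and CAG in the others. In transcripts of Gria2, Grik1 and Grik2, the deaminase encoded by Adarb1 edits it to an arginine codon. The 30 bases around it are shown because Gria2, the subunit whose transcripts are edited nearly completely in brain, was by far the most abundant receptor gene here. Capitals mark the codon, as the genome encodes it, in GENCODE M21 transcripts on GRCm38, read 5′ to 3′ along the transcript.
Gria1: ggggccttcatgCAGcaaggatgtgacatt
Gria2: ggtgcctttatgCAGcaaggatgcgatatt
Gria3: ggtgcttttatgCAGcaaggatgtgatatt
Gria4: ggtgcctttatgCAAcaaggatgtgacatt
Grik1: ggagctctcatgCAGcaaggatcggagctg
Grik2: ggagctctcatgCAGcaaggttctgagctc

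The windows lie in exon 11 of Gria1 (chr11:57243082-57243111, plus strand), exon 11 of Gria2 (chr3:80706896-80706925, minus strand), exon 11 of Gria3 (chrX:41610253-41610282, plus strand) and exon 12 of Gria4 (chr9:4464122-4464151, minus strand). Those of Grik1 and Grik2 run across an exon junction. Counted from the start codon, the capitals are codon 607 of Gria2 and codon 621 of Grik2. Compared with the Gria2 window, 26 of 30 bases were the same in Gria1, 28 in Gria3, 27 in Gria4, 21 in Grik1 and 20 in Grik2. Counts per gene do not show which codon the transcripts carry after editing.

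Most of the receptor genes were expressed at low levels in both populations. Over the 10 libraries, 15 genes averaged above 1 FPKM, 20 between 0.1 and 1 FPKM, and 17 below 0.1 FPKM. Only Gria2 and Grik5 averaged above 10 FPKM among the 52. Other genes above 1 FPKM included Gria1, Gria3, Gria4, Grin2b, Grik1, Grik2, Grik3, Gabra2, Gabbr1, Glra2 and Glrb. Thus each ionotropic class except the delta receptors, and the GABA-B class, had at least 1 subunit above that level, and the metabotropic glutamate receptors had none.

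**Figure D1:**
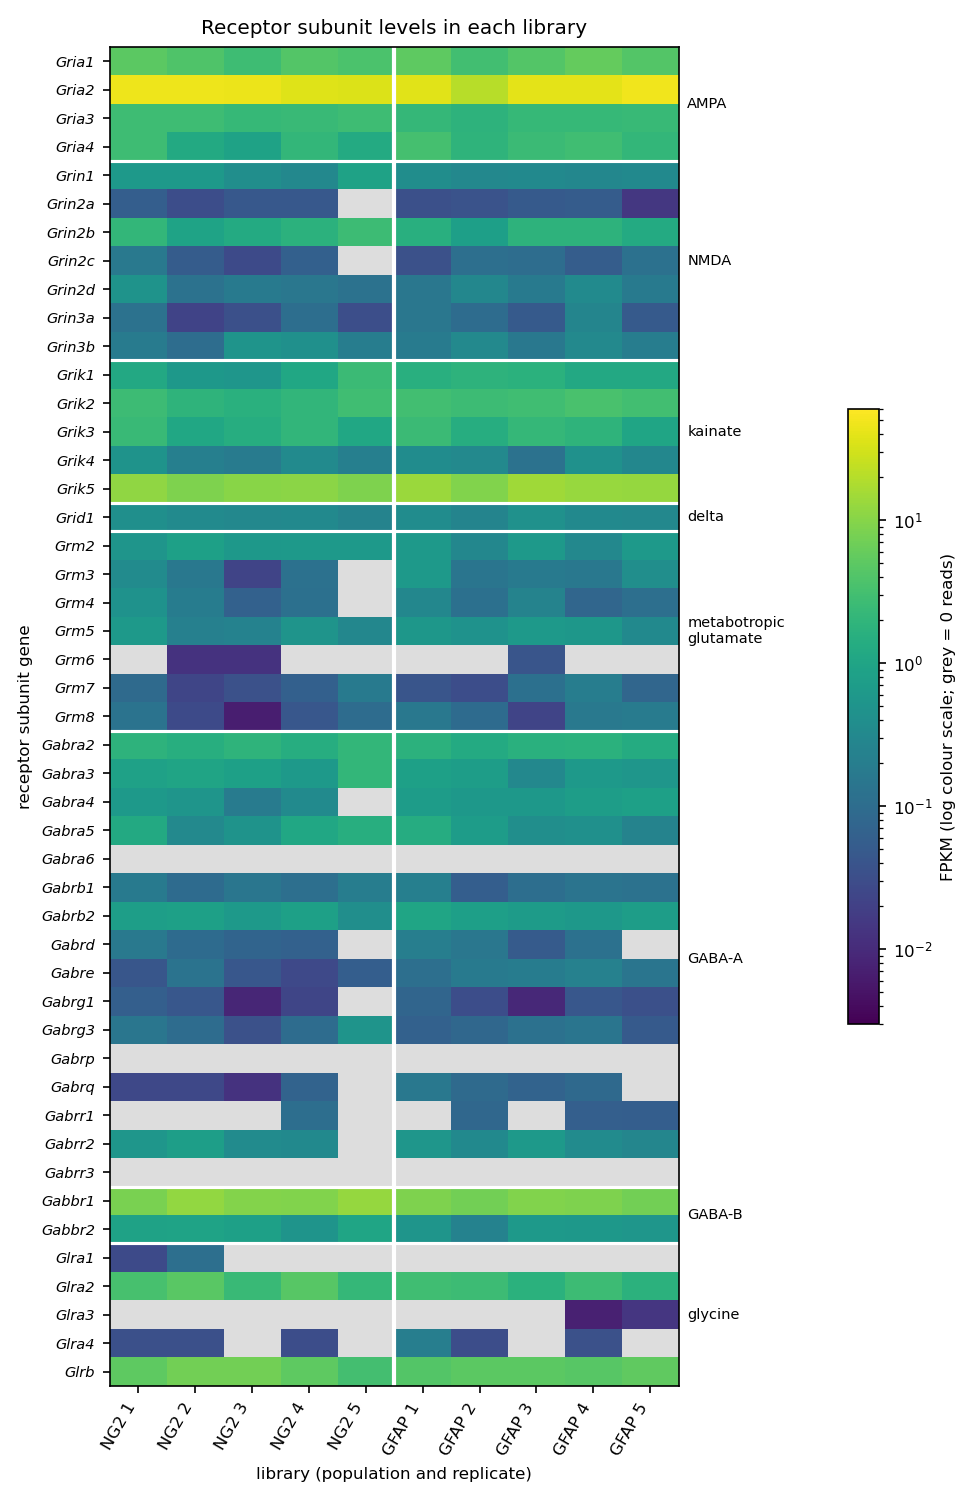
FPKM of 47 receptor genes (rows, by class) in the 5 NG2 and 5 GFAP libraries (columns), on a logarithmic colour scale with 0 reads in grey. Gria2 is the brightest row, at 20.5 to 47.8 FPKM, and NG2 replicate 5 has 17 grey cells where the other libraries have 5 to 8.

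Of the 52 genes, 35 passed the expression filter of edgeR and entered the test with 16187 genes in all. A further 3 were at 0 in every library, namely Gabra6, Gabrp and Gabrr3. In those genes, a count of 0 allows up to 0.0382 CPM (counts scaled to a common total) over the NG2 libraries and 0.0408 CPM over the GFAP libraries (3 counts of the total, counting error only). The other 14 had reads but did not pass that filter. Among them were Grin2c, Grm3, Grm4, Grm6, Grm7, Gabrd, Gabre, Gabrg1, Gabrq, Gabrr1, Glra1, Glra3 and Glra4.

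None of the 35 tested receptor genes passed an adjusted p of 0.05 between NG2 and GFAP cells in edgeR's quasi-likelihood test with Benjamini-Hochberg adjustment, a count of 0 where 0.148% of all tested genes passed. At an unadjusted p under 0.05 there were 11, 8 higher and 3 lower in NG2 libraries, where 12.8% of all tested genes did so. The 8 included Gria3, Grin1, Gabra3, Gabbr1, Gabbr2 and Glra2, and the 3 were Gria4, Grik2 and Grik5. DESeq2's Wald test called 1 receptor gene, where it called 2.61% of the 13121 genes to which it gave an adjusted p. It gave none to some of the 35, such as Grin2a, Grik4 and Grid1. An adjusted p under 0.05 stood beside 1 receptor gene in the authors' deposited table, where 1.16% of genes with a value had one. The NG2 and GFAP libraries did not overlap for 1 tested receptor gene, a property of 3.28% of all tested genes.

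The fold changes, NG2 over GFAP, were positive for 19 and negative for 16 of the 35, with a median log2 of 0.17, while the median of all tested genes was -0.01. Without GFAP replicate 2 the median of the 35 was 0.0146, near the 0.00267 of all tested genes, and without NG2 replicate 5 it was 0.0896, against -0.0136. The glutamate receptor genes were positive in 7 and negative in 13 of 20, with a median of -0.13. The GABA and glycine receptor genes were positive in 12 and negative in 3 of 15, with a median of 0.31. Without NG2 replicate 5, 10 of the 20 glutamate receptor genes were positive, with a median of -0.01, and 13 of the 15 GABA and glycine receptor genes, with a median of 0.28. These counts cover only genes that passed the filter and carry no test. Among genes with reads outside it, DESeq2's log2 fold changes were negative for Gabrd, Gabre, Gabrg1, Gabrq, Gabrr1, Glra3 and Glra4. They were positive for Glra1 and negative for Grin2c, Grm3, Grm4, Grm6 and Grm7. Those genes had 3 to 136 reads each over all 10 libraries.

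**Figure D2:**
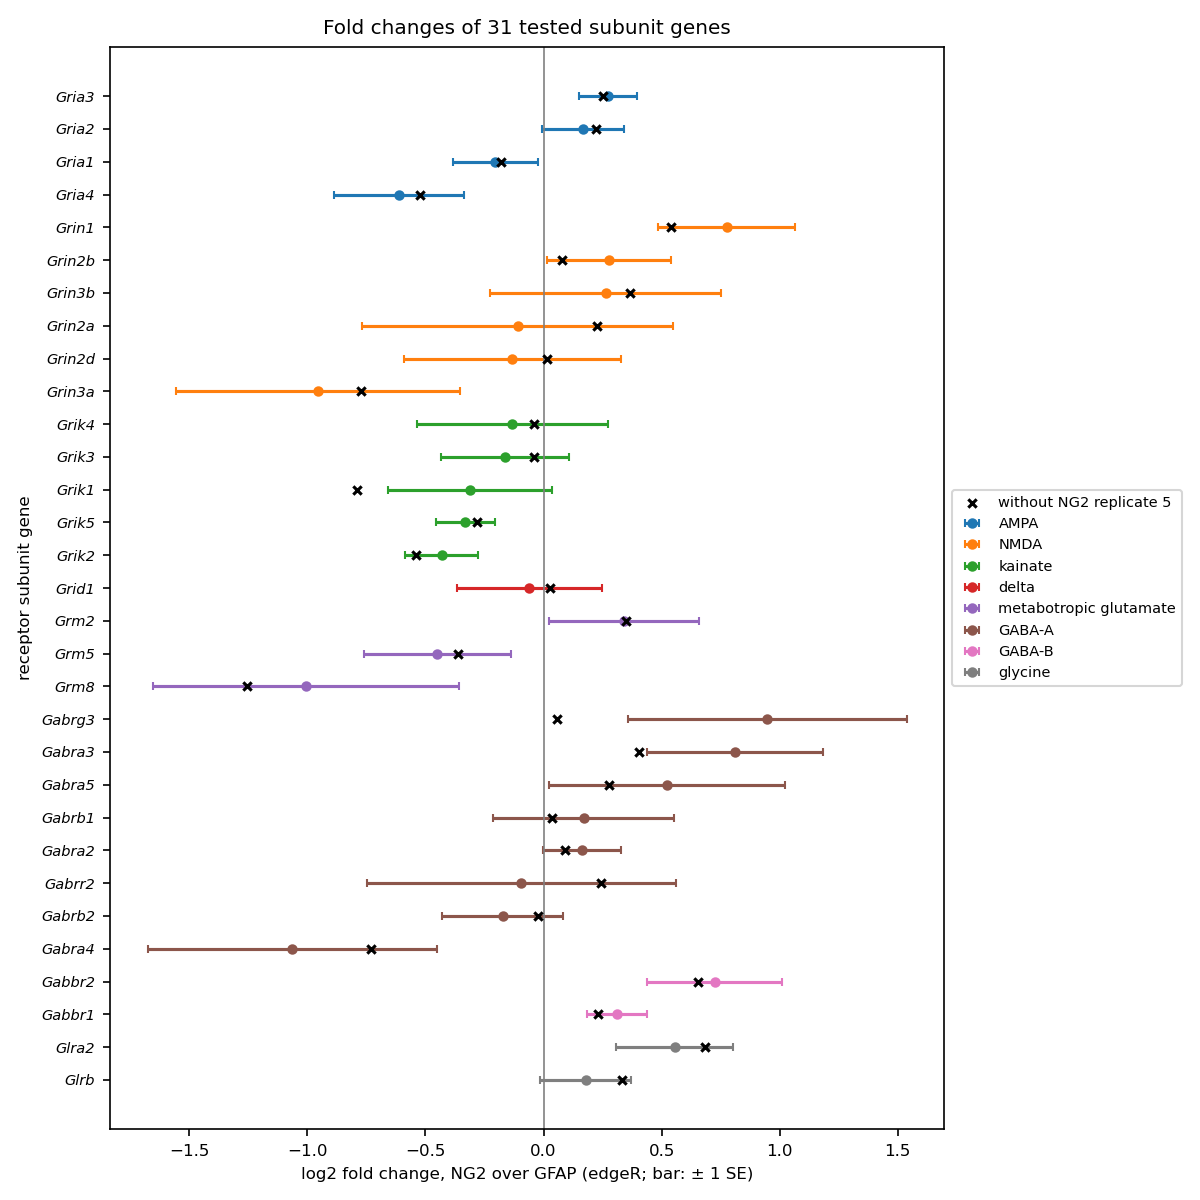
Log2 fold change, NG2 over GFAP, with 1 SE for 31 tested receptor genes (rows, coloured by class), and the value without NG2 replicate 5 as a cross. All 5 kainate genes lie left of 0 and both GABA-B genes right of it, and Gabrg3 moves to 0.06 when that library is left out.

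The AMPA receptor genes were led by Gria2, and Gria3 and Gria4 had fold changes of opposite sign. Gria2, the subunit that keeps edited AMPA receptors impermeable to calcium, had 47.5, 45.9, 44.9, 36.5 and 35.7 FPKM in NG2 libraries, against 37.9, 20.5, 39.5, 40.1 and 47.8 FPKM in GFAP libraries. The groups overlapped, and GFAP replicate 2 was low. Its log2 fold change was 0.17 (SE 0.17; Benjamini-Hochberg adjusted p of 0.731 in edgeR), and 0.01 without GFAP replicate 2.

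Gria1, a subunit of calcium-permeable receptors, had 4.97, 3.94, 2.81, 4.17 and 3.69 FPKM in NG2 libraries and 5.19, 3.02, 4.23, 5.71 and 4.19 FPKM in GFAP libraries. The ranges overlapped widely. NG2 over GFAP, the log2 fold change was -0.20 (SE 0.18; Benjamini-Hochberg adjusted p of 0.679 in edgeR), and ran from -0.32 without GFAP replicate 2 to -0.09 without GFAP replicate 4.

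Gria3 and Gria4 were picked out after their values were seen, for their unadjusted p. Gria3 averaged 2.65 ± 0.232 FPKM in NG2 and 2.18 ± 0.232 FPKM in GFAP libraries (SD, n = 5 each), with a log2 fold change of 0.27 (SE 0.12; Benjamini-Hochberg adjusted p of 0.376 in edgeR). Gria4 had 2.82, 1.25, 0.890, 2.12 and 1.28 FPKM in NG2 libraries, against 3.27, 1.86, 2.58, 2.87 and 2.08 FPKM in GFAP libraries. NG2 replicates 2, 3 and 5 lay below every GFAP library, and NG2 replicates 1 and 4 lay within the GFAP range. Its log2 fold change was -0.61 (SE 0.27; Benjamini-Hochberg adjusted p of 0.372 in edgeR).

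Gria2 made up 83.6% ± 3.09 of summed AMPA subunit FPKM in NG2 libraries and 79.7% ± 3.49 in GFAP libraries (SD, n = 5 each). The difference of 3.91 percentage points gave p = 0.111 in a two-sided exact permutation test over all assignments of the libraries, and 0.222 after Benjamini-Hochberg adjustment over the 4 shares tested. From raw counts, not divided by length, the difference was 1.88 percentage points. The smallest p this design allows is 0.00794. The deposited length of Gria2 is 15548 bases, the union of its exons, while its longest annotated transcript has 10371, so levels set between genes depend on which length divides the counts.

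Among NMDA receptor genes, Grin2b was the most abundant. It encodes the glutamate-binding subunit that predominates before birth. It had 2.14, 0.947, 1.26, 1.75 and 2.67 FPKM in NG2 libraries and 1.55, 0.808, 1.78, 1.79 and 1.26 FPKM in GFAP libraries. The NG2 libraries spread more widely than the GFAP libraries and enclosed nearly all of them. NG2 over GFAP, its log2 fold change was 0.28 (SE 0.26; Benjamini-Hochberg adjusted p of 0.698 in edgeR). It was 0.08 without NG2 replicate 5, 0.13 without GFAP replicate 2 and 0.44 without NG2 replicate 2.

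Grin1, the glycine-binding subunit that every NMDA receptor requires, had 0.633, 0.608, 0.393, 0.308 and 0.914 FPKM in NG2 libraries, against 0.389, 0.301, 0.333, 0.299 and 0.331 FPKM in GFAP libraries. All NG2 libraries but replicate 4 lay above the GFAP libraries, and replicate 4 lay within their range. Between the populations, the log2 fold change was 0.78 (SE 0.29; Benjamini-Hochberg adjusted p of 0.298 in edgeR), and 0.54 without NG2 replicate 5. Grin2b stood at 3.35 ± 1.49 times the FPKM of Grin1 in NG2 and 4.36 ± 1.31 times in GFAP libraries (SD, n = 5 each), with overlapping ranges. The deposited length of Grin1 is 9700 bases and its longest coding transcript has 4276, whereas Grin2b has 24842 and 24060. This ratio therefore depends on which length divides the counts, and would be lower by transcript length.

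The other NMDA genes had lower mean levels than Grin1 in both populations. Grin2a, the subunit that rises after birth, averaged 0.0358 FPKM in NG2 and 0.0381 FPKM in GFAP libraries, from 48 and 51 reads. Grin2b supplied 84.6% ± 7.504 of summed Grin2 FPKM in NG2 and 79.2% ± 8.87 in GFAP libraries (SD, n = 5 each), with an exact permutation p of 0.349 and 0.466 after adjustment over the 4 shares. That difference of 5.46 percentage points was 1.97 from raw counts, 1.75 without GFAP replicate 2 and 2.74 without NG2 replicate 5. It was 7.85 without NG2 replicate 1. Grin3a, which encodes a glycine-binding subunit that lowers calcium permeability, had 0.128, 0.0224, 0.0339, 0.106 and 0.0318 FPKM in NG2 and 0.151, 0.101, 0.0489, 0.270 and 0.0491 FPKM in GFAP libraries. The ranges overlapped, and its log2 fold change of -0.96 (SE 0.60; Benjamini-Hochberg adjusted p of 0.538 in edgeR) was among the 3 most negative of the tested receptor genes. GFAP replicate 4 held 48 of the 116 Grin3a reads of the GFAP libraries, and without it the value was -0.46. Grin2d and Grin3b overlap the far more abundant genes Kdelr1 and Tmem259 on the opposite strand, so their reads are uncertain.

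The 5 kainate receptor genes all had negative fold changes, with a median log2 of -0.31, and their summed FPKM averaged 15.4 ± 2.17 in NG2 and 19.2 ± 2.38 in GFAP libraries (SD, n = 5 each). Not every sign was firm. Grik4 had a log2 fold change of -0.13 (SE 0.40), which reached 0.04 with 1 library left out. Grik3 had -0.16 (SE 0.27), which reached -0.007. Grik5, which encodes a high-affinity subunit that needs a partner such as Grik2 to form channels, had 11.7, 8.96, 10.4, 10.6 and 8.74 FPKM in NG2 libraries, against 13.4, 9.28, 14.5, 12.9 and 12.7 FPKM in GFAP libraries. Except for GFAP replicate 2, every GFAP library lay above every NG2 library. The log2 fold change was -0.33 (SE 0.13; Benjamini-Hochberg adjusted p of 0.306 in edgeR), and -0.42 without GFAP replicate 2.

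Grik2, a subunit that can form channels by itself, had 2.71, 1.91, 1.64, 2.07 and 2.90 FPKM in NG2 libraries, against 3.03, 2.69, 2.93, 3.45 and 2.94 FPKM in GFAP libraries. NG2 replicates 2, 3 and 4 lay below every GFAP library, and replicates 1 and 5 above the lowest GFAP library but below the other GFAP libraries. NG2 over GFAP, the log2 fold change was -0.43 (SE 0.15; Benjamini-Hochberg adjusted p of 0.281 in edgeR). Leaving out each library in turn moved it between -0.54 and -0.33 and the adjusted p between 0.0799 and 0.517. Several unprocessed or intronic transcripts lie within Grik2 on the same strand, the largest with 116 reads in NG2 and 240 in GFAP libraries, so some Grik2 reads are uncertain.

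Of the remaining kainate genes, Grik1 had a log2 fold change of -0.31, which became -0.79 without NG2 replicate 5, where it was highest at 2.53 FPKM. Grik3 averaged 1.63 ± 0.613 FPKM in NG2 and 1.81 ± 0.603 FPKM in GFAP libraries, and Grik4 averaged 0.289 ± 0.123 and 0.313 ± 0.121 FPKM in the NG2 and GFAP libraries (SD, n = 5 each). The ferritin pseudogene Ftl2 lies within Grik3 on the same strand. Grik5 took 65.6% of summed kainate FPKM in NG2 and 65.3% in GFAP libraries, a difference that was not tested.

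**Figure D3:**
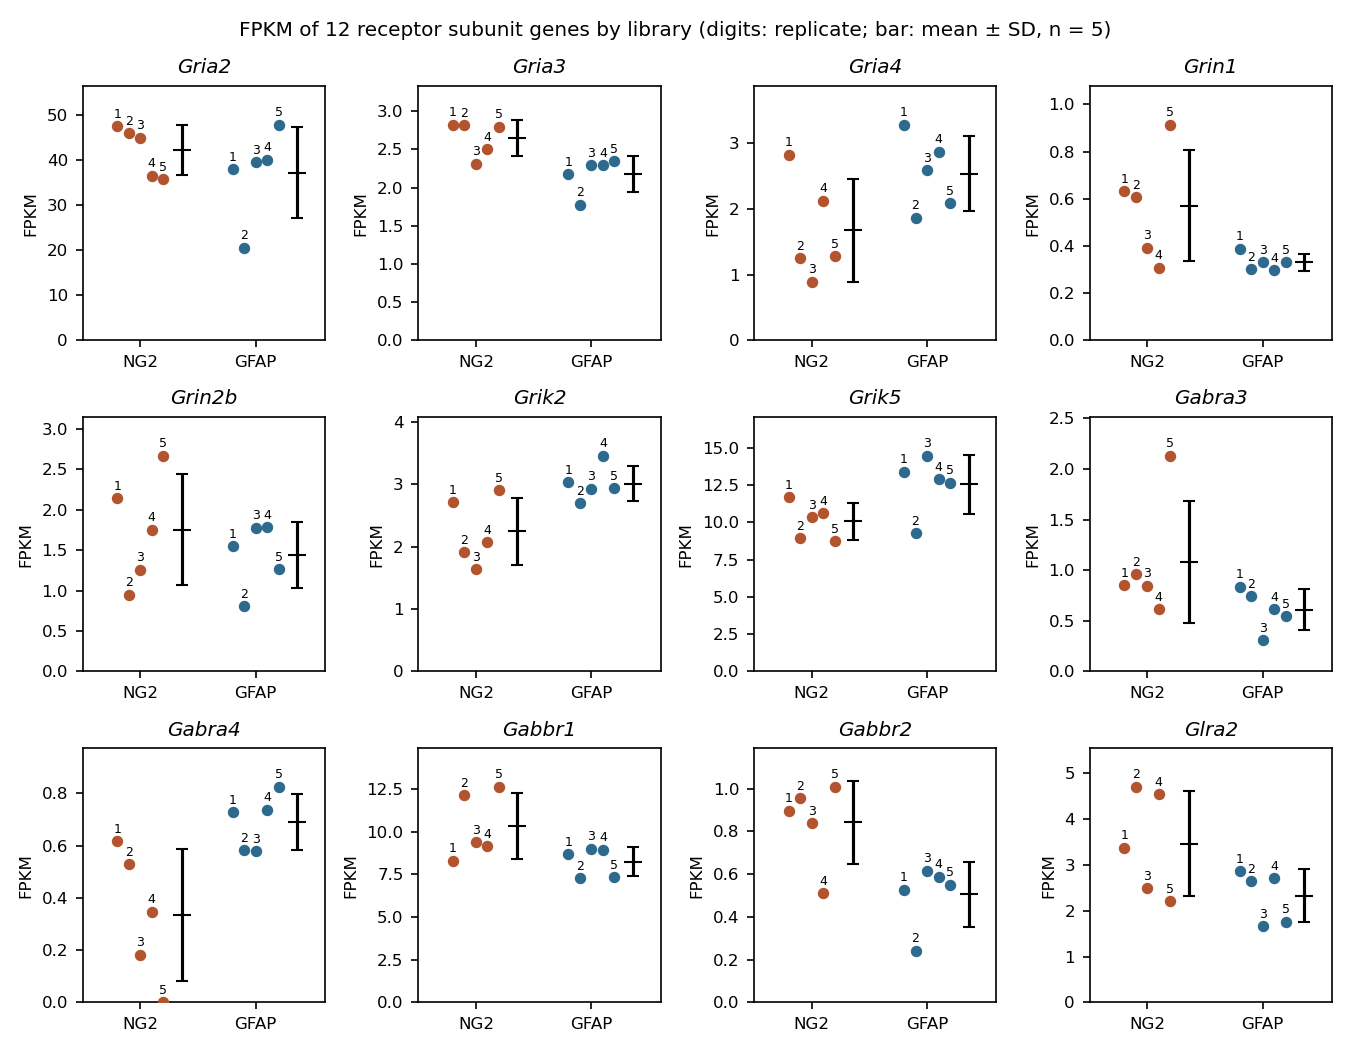
FPKM of 12 receptor genes by library, with the replicate number beside each point and the mean ± SD (n = 5) at the right of each group, NG2 left of GFAP. The groups overlap for each of the 12, as for Grik5, at 8.74 to 11.7 FPKM in NG2 libraries against 9.28 to 14.5 FPKM in GFAP libraries.

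The delta receptor gene Grid1, which binds cerebellins and takes part in synapse formation, had 0.423, 0.345, 0.302, 0.334 and 0.252 FPKM in NG2 libraries and 0.371, 0.260, 0.453, 0.324 and 0.303 FPKM in GFAP libraries. The ranges overlapped almost fully, with a log2 fold change of -0.06 (SE 0.31; Benjamini-Hochberg adjusted p of 0.960 in edgeR) that turned positive without NG2 replicate 5 or GFAP replicate 3.

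No metabotropic glutamate receptor gene averaged above 1 FPKM. Grm2, whose receptor couples to Gi proteins, had 0.529, 0.841, 0.581, 0.636 and 0.638 FPKM in NG2 libraries and 0.648, 0.292, 0.628, 0.310 and 0.643 FPKM in GFAP libraries. GFAP replicates 2 and 4 were low and the other GFAP libraries lay within the NG2 range. Between the groups, its log2 fold change was 0.34 (SE 0.32; Benjamini-Hochberg adjusted p of 0.694 in edgeR), and 0.20 without GFAP replicate 2.

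Grm5, a Gq-coupled receptor found on cortical progenitors, had 0.619, 0.221, 0.243, 0.504 and 0.288 FPKM in NG2 libraries and 0.561, 0.473, 0.608, 0.566 and 0.333 FPKM in GFAP libraries. NG2 replicates 2, 3 and 5 lay below all GFAP libraries. Between the populations, the log2 fold change was -0.45 (SE 0.31; Benjamini-Hochberg adjusted p of 0.587 in edgeR), and -0.70 without NG2 replicate 1.

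Grm8, whose receptor couples to Gi proteins, with 49 reads in NG2 and 95 in GFAP libraries, had a log2 fold change of -1.005 (SE 0.65; Benjamini-Hochberg adjusted p of 0.549 in edgeR), from 0.131, 0.0277, 0.00700, 0.0440 and 0.101 FPKM in NG2 and 0.157, 0.0941, 0.0227, 0.167 and 0.183 FPKM in GFAP libraries.

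The untested metabotropic genes had between 5 and 136 reads over all 10 libraries. Grm3, a receptor of astroglia in the adult, had 30 reads in NG2 and 70 in GFAP libraries. Grm6, whose receptor serves retinal ON bipolar cells, had 2 and 3 reads in the NG2 and GFAP libraries.

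Of 11 tested GABA-A receptor genes, 8 had positive and 3 negative fold changes, with a median log2 of 0.30. Among the alpha subunit genes, which set much of the receptor's kinetics and pharmacology, none exceeded 55.2% of the summed alpha FPKM in any library. Gabra2 supplied 42.4% ± 7.65 of summed alpha FPKM in NG2 and 43.9% ± 7.75 in GFAP libraries (SD, n = 5 each), with an exact permutation p of 0.778, also after adjustment. It averaged 1.73 ± 0.285 FPKM in NG2 and 1.53 ± 0.224 FPKM in GFAP libraries (SD, n = 5 each). Gabra5, abundant in the hippocampus of the adult, averaged 0.923 ± 0.498 FPKM in NG2 and 0.634 ± 0.443 FPKM in GFAP libraries (SD, n = 5 each). It overlaps another gene on the opposite strand, and the labels do not state the strand setting of the counting, so its reads are uncertain.

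Gabra3 had 0.851, 0.962, 0.848, 0.618 and 2.13 FPKM in NG2 libraries, against 0.839, 0.744, 0.306, 0.616 and 0.546 FPKM in GFAP libraries. NG2 replicate 5 was more than 1 FPKM above any other library. The log2 fold change of 0.81 (SE 0.37; Benjamini-Hochberg adjusted p of 0.382 in edgeR) became 0.40 without it.

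Gabra4, an alpha subunit of extrasynaptic receptors, had 0.616, 0.530, 0.182, 0.348 and 0 FPKM in NG2 libraries, against 0.728, 0.582, 0.580, 0.737 and 0.825 FPKM in GFAP libraries. NG2 replicate 5 had no read, which allows up to 0.171 CPM there. NG2 over GFAP, the log2 fold change was -1.06 (SE 0.61; Benjamini-Hochberg adjusted p of 0.494 in edgeR), the most negative of the tested receptor genes, and -0.73 without that library. Gabra4 supplied 8.76% of alpha FPKM in NG2 and 19.97% in GFAP libraries. It shares 196 bases with Gabrb1 on the opposite strand, which had 158 reads in NG2 and 135 in GFAP libraries.

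Gabrg3 had 0.149, 0.0977, 0.0348, 0.0990 and 0.500 FPKM in NG2 libraries, against 0.0652, 0.0833, 0.119, 0.139 and 0.0505 FPKM in GFAP libraries. Only NG2 replicates 1 and 5 exceeded the GFAP libraries. Its log2 fold change of 0.95 (SE 0.59; Benjamini-Hochberg adjusted p of 0.534 in edgeR), the most positive of the tested receptor genes, became 0.06 without NG2 replicate 5.

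**Figure D4:**
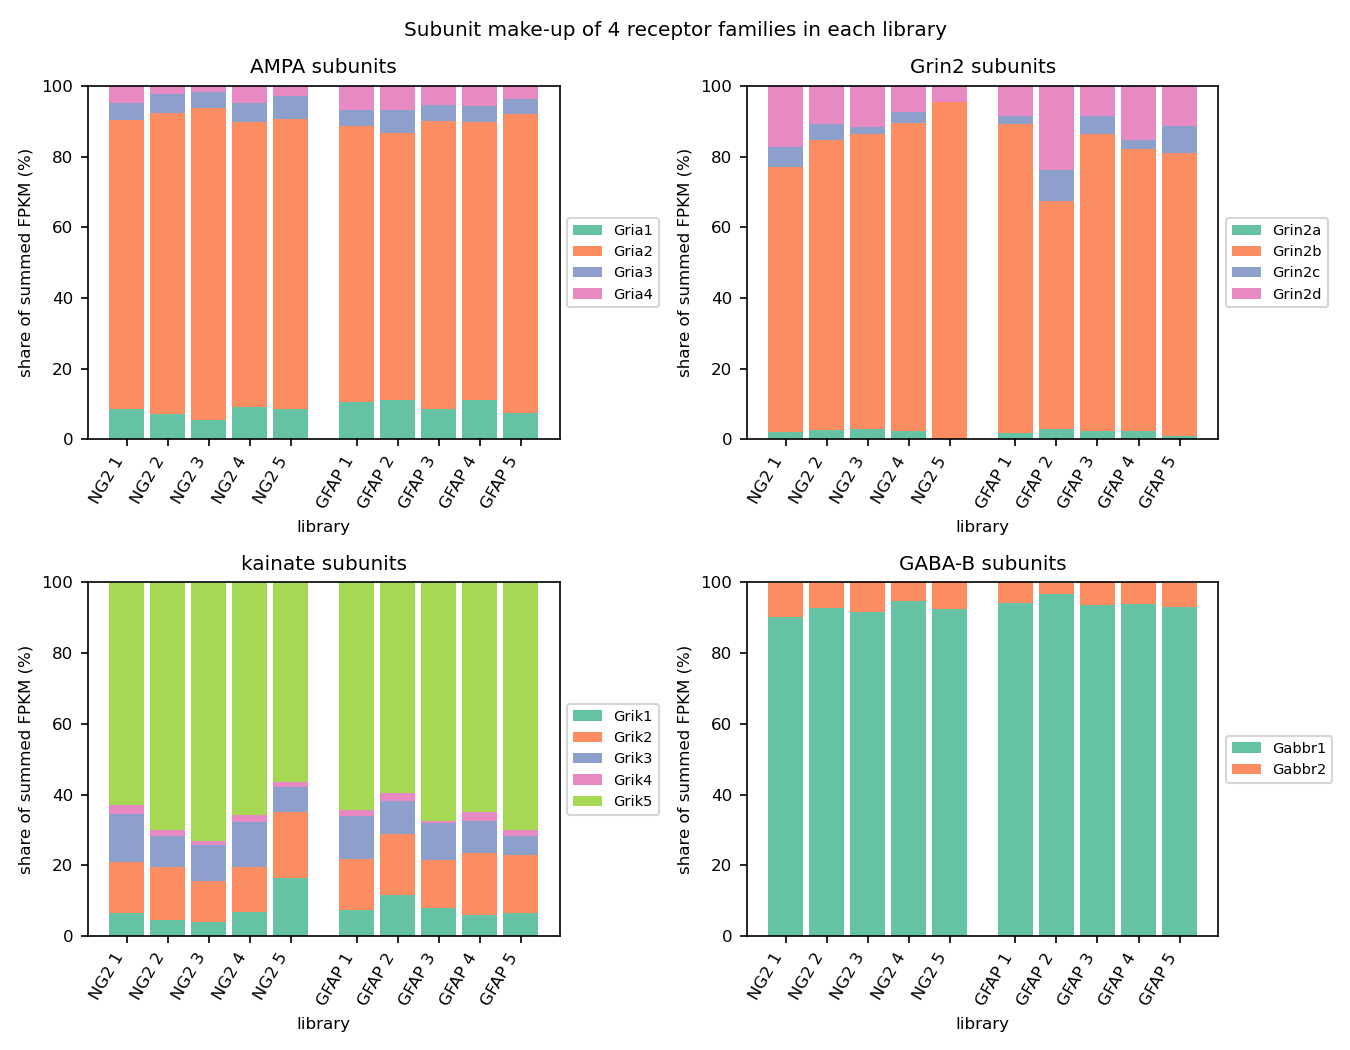
Share of summed FPKM, in percent, held by each subunit gene of the AMPA, Grin2, kainate and GABA-B families in each library, NG2 libraries left of GFAP libraries. Gria2 takes 75.5% to 88.2% of the AMPA bars, Grin2b 64.3% to 95.5% of the Grin2 bars, Grik5 56.5% to 73.01% of the kainate bars and Gabbr1 90.3% to 96.8% of the GABA-B bars.

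The less abundant GABA-A genes included those of extrasynaptic and retinal receptors. Gabrd, the delta subunit of tonic inhibition, had 17 reads in NG2 and 24 in GFAP libraries. Gabre, the epsilon subunit, had 22 reads in NG2 and 60 in GFAP libraries, and Gabrq, the theta subunit, had 11 and 34 reads in the NG2 and GFAP libraries. Both lie beside Gabra3 on the X chromosome. Gabrr2, a rho subunit, averaged 0.404 ± 0.290 FPKM in NG2 and 0.423 ± 0.141 FPKM in GFAP libraries (SD, n = 5 each), with 0 reads in NG2 replicate 5. Gabrb2, the beta subunit that becomes abundant in the adult forebrain, averaged 0.681 ± 0.182 FPKM in NG2 and 0.759 ± 0.153 FPKM in GFAP libraries (SD, n = 5 each).

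GABA-A genes lie in clusters in the genome, and neighbours did not all have fold changes of the same sign. In the chromosome 7 cluster, Gabrg3 and Gabra5 had log2 fold changes of 0.95 and 0.52. In the chromosome 5 cluster Gabra2 and Gabrb1 had 0.16 and 0.17 but Gabra4, between them, had -1.06. The value of Gabrb1 was -0.01 without GFAP replicate 2.

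Both subunits of the GABA-B receptor, an obligate pair in which Gabbr1 binds GABA and Gabbr2 couples to the G protein, had positive fold changes. Gabbr1 had 8.31, 12.2, 9.39, 9.17 and 12.6 FPKM in NG2 libraries, against 8.68, 7.29, 9.02, 8.95 and 7.35 FPKM in GFAP libraries. NG2 replicate 1 lay within the GFAP range and the other 4 NG2 libraries above it. Its log2 fold change was 0.31 (SE 0.13; Benjamini-Hochberg adjusted p of 0.336 in edgeR).

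Gabbr2 had 0.897, 0.954, 0.840, 0.512 and 1.009 FPKM in NG2 libraries, against 0.528, 0.242, 0.617, 0.588 and 0.551 FPKM in GFAP libraries. NG2 replicate 4 lay within the GFAP range, and the other NG2 libraries lay above it. Between the populations, the log2 fold change was 0.73 (SE 0.29; Benjamini-Hochberg adjusted p of 0.313 in edgeR), and 0.55 without GFAP replicate 2, the lowest library. Gabbr1 stood at 12.7 ± 3.21 times the FPKM of Gabbr2 in NG2 and 17.96 ± 6.92 times in GFAP libraries (SD, n = 5 each), with overlapping ranges.

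Glycine receptors were represented by Glra2, the alpha subunit of the fetal brain, and Glrb, the beta subunit that binds gephyrin. Glra2 had 3.38, 4.70, 2.49, 4.54 and 2.21 FPKM in NG2 libraries, against 2.87, 2.64, 1.67, 2.72 and 1.76 FPKM in GFAP libraries. NG2 replicates 1, 2 and 4 lay above all GFAP libraries and replicates 3 and 5 within their range. The log2 fold change was 0.55 (SE 0.25; Benjamini-Hochberg adjusted p of 0.371 in edgeR).

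Glrb had 5.07, 7.18, 7.16, 5.09 and 3.10 FPKM in NG2 libraries, against 4.19, 5.02, 4.90, 4.63 and 5.41 FPKM in GFAP libraries. NG2 replicate 5 was the lowest of the 10 libraries. NG2 over GFAP, the log2 fold change was 0.18 (SE 0.19; Benjamini-Hochberg adjusted p of 0.740 in edgeR), and 0.33 without that library. Glra1, the main alpha subunit of the adult spinal cord, had 5 reads in NG2 and 0 in GFAP libraries, Glra3 had 0 and 3, and Glra4 had 3 and 9, in NG2 and GFAP libraries in each case.

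Summed by class, the NG2 and GFAP libraries overlapped for all 8 classes. GABA-A genes summed to 14.3 ± 1.65 FPKM in NG2 and 11.5 ± 1.44 FPKM in GFAP libraries, and GABA-B genes to 11.2 ± 2.06 and 8.77 ± 0.979 FPKM in the NG2 and GFAP libraries (SD, n = 5 each). AMPA genes summed to 50.4 ± 6.04 FPKM in NG2 and 46.3 ± 11.2 FPKM in GFAP libraries, and glycine receptor genes to 9.03 ± 2.44 and 7.22 ± 0.412 FPKM in the NG2 and GFAP libraries (SD, n = 5 each).

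Auxiliary subunits and extracellular partners of the receptors, 23 genes, had mostly positive fold changes. Of 19 tested, 17 had positive fold changes and 2 negative ones, with a median log2 of 0.29, and 0 passed by edgeR, 3 having an unadjusted p under 0.05 and 1 passing by DESeq2. Over all genes these shares were 0.148%, 12.8% and 2.61%, the last among genes given an adjusted p by DESeq2. They apply also to the lists that follow. The auxiliary genes' summed level was 382 to 490 FPKM in NG2 and 310 to 351 FPKM in GFAP libraries, without overlap. Most of that sum came from Cnih2, a cornichon protein that exports AMPA receptors from the endoplasmic reticulum and slows their closing. It averaged 280 ± 34.9 FPKM in NG2 and 199 ± 16.8 FPKM in GFAP libraries (SD, n = 5 each), with no overlap and a log2 fold change of 0.48 (SE 0.10; Benjamini-Hochberg adjusted p of 0.103 in edgeR). Its Benjamini-Hochberg adjusted p was 0.00195 by DESeq2, and 0.00203 in the authors' deposited table.

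Cnih1, the next most abundant gene of that list, averaged 56.6 ± 9.17 FPKM in NG2 and 46.0 ± 9.85 FPKM in GFAP libraries (SD, n = 5 each), with overlap. Cnih3, chosen after its values were seen, averaged 8.38 ± 0.643 FPKM in NG2 and 5.96 ± 1.19 FPKM in GFAP libraries (SD, n = 5 each), without overlap and with a log2 fold change of 0.48 (SE 0.15; Benjamini-Hochberg adjusted p of 0.230 in edgeR). Cacng7 and Cacng8, which encode AMPA receptor auxiliary subunits, were at 0 in all libraries.

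Of 25 tested genes for postsynaptic scaffolds and trafficking, 17 had positive and 8 negative fold changes, with a median log2 of 0.09, and 0 passed by edgeR, with 2 at an unadjusted p under 0.05 and 1 called by DESeq2. Gabarap, which binds the gamma subunit of GABA-A receptors, averaged 183 ± 23.6 FPKM in NG2 and 146 ± 11.5 FPKM in GFAP libraries (SD, n = 5 each). Dlgap4, a scaffold protein of excitatory synapses, averaged 45.9 ± 4.73 FPKM in NG2 and 39.7 ± 4.75 FPKM in GFAP libraries (SD, n = 5 each). Homer2, which links group I metabotropic receptors to calcium stores and was chosen after its values were seen, averaged 1.87 ± 0.286 FPKM in NG2 and 2.69 ± 0.256 FPKM in GFAP libraries (SD, n = 5 each), without overlap. Its log2 fold change was -0.54 (SE 0.13; Benjamini-Hochberg adjusted p of 0.129 in edgeR), with a DESeq2 adjusted p of 0.0124.

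Genes for transmitter synthesis, packaging and uptake were divided, with 8 positive and 9 negative among 17 tested and a median log2 of -0.03. None passed by edgeR or DESeq2, and 1 had an unadjusted p under 0.05. Slc17a6, the vesicular glutamate transporter of young neurons, averaged 24.8 ± 2.68 FPKM in NG2 and 28.9 ± 3.87 FPKM in GFAP libraries (SD, n = 5 each). Slc1a3, the glutamate transporter of radial glia, averaged 13.8 ± 2.53 FPKM in NG2 and 16.8 ± 3.56 FPKM in GFAP libraries (SD, n = 5 each).

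Chloride transporters and their kinases set whether GABA-A and glycine receptors depolarise a cell. Of 9 tested, 4 were positive and 5 negative, with a median log2 of -0.06, and 0 passed by edgeR or DESeq2, with 2 at an unadjusted p under 0.05. Slc12a2, the chloride importer, averaged 3.08 ± 0.912 FPKM in NG2 and 3.67 ± 0.217 FPKM in GFAP libraries, and Slc12a5, the exporter of mature neurons, 0.403 ± 0.239 FPKM in NG2 and 0.394 ± 0.203 FPKM in GFAP libraries (SD, n = 5 each). Both were named for their role after their values were seen. By the rule on abundance, Stk39, a kinase acting on these transporters, averaged 10.4 ± 0.780 FPKM in NG2 and 11.4 ± 1.56 FPKM in GFAP libraries, and the chloride channel gene Clcn2 6.81 ± 1.72 FPKM in NG2 and 6.58 ± 1.02 FPKM in GFAP libraries (SD, n = 5 each).

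Of the 3 genes for RNA editing, 1 was positive and 2 were negative, and 0 passed by edgeR, by DESeq2 or at an unadjusted p under 0.05. Adarb1, whose product edits the Gria2 codon shown above, averaged 0.973 ± 0.163 FPKM in NG2 and 0.919 ± 0.189 FPKM in GFAP libraries (SD, n = 5 each). Adar, which encodes another deaminase of the family, averaged 3.40 ± 0.485 FPKM in NG2 and 3.72 ± 0.449 FPKM in GFAP libraries (SD, n = 5 each).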

How the data were processed

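Poly(A)-enriched RNA of sorted cells was amplified with SMARTer chemistry and sequenced as paired ends, per the labels' protocols. The submitters' processing notes name HISAT2, featureCounts 1.5.0-p3 and GRCm38.p6. The authors deposited raw read counts per gene, and FPKM values equal to that count over gene length and over a constant for the library. The authors' deposited table also gives, per the file headers, a mean signal for each group, a log2 fold change, and a p-value with its adjusted p-value. Neither its tool nor the strand setting or annotation release is given in the sources used here.

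The main test was edgeR 4.0.16 (R 4.3.3) in its quasi-likelihood form on the deposited counts, with TMM scaling. The default filter left 16187 genes, over which p-values were adjusted by Benjamini-Hochberg. The threshold was an adjusted p of 0.05. Subunit shares were tested over all assignments of the libraries. The edgeR step was checked on simulated data. DESeq2 1.42.0 and limma 3.58.1 on log2(FPKM + 1) and log2(FPKM + 0.1) were alternatives, with other scalings, filters, a replicate block and each library left out. Same-numbered NG2 and GFAP libraries deviated together at correlations of -0.02 to 0.08, so the numbers were not taken as pairs. No libraries agreed within sampling noise.

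Members and gene lists were chosen with earlier results of these data known. Values in every library are given for members past a threshold, for the 2 most abundant of each class, for the 3 largest fold changes in each direction, and for members whose groups did not overlap. From each list, members past the edgeR threshold or else the 2 most abundant are named. Some members count in every total but are not reported here one by one, nor drawn. Coordinates count from 1. Exon positions and codon windows came from GENCODE M21, whose exon union equals the deposited length for 50 of the 52 genes. Amplified reads without molecular identifiers are not independent molecules, so limits from counts cover counting error only.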

Additional observations from a re-analysis of the deposited data

Results flagged for a closer look

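Among 42 sets of 5 libraries (1 gene or subunit share in 1 population), 3 held a library far from the other 4. About 1 set in 20 is the rate for sets chosen without regard to their values. Gabra3 and Gabrg3 were named because their fold changes were among the 3 largest, so that rate does not apply to their sets. NG2 replicate 5 was the library in 2 of the 3. Its Gabra3 level was 2.13 FPKM, against 0.618 to 0.962 FPKM in the other NG2 libraries. Its Gabrg3 level was 0.500 FPKM, against 0.0348 to 0.149 FPKM in the other NG2 libraries. GFAP replicate 2 had 0.242 FPKM of Gabbr2, below the 0.528 to 0.617 FPKM of the other GFAP libraries.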

How the results depend on the processing

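Of the receptor genes, 0 were called in either direction by edgeR under every other scaling and filter, by limma on FPKM, with the replicate block, or without any 1 library; DESeq2 alone called 1, higher in NG2. Of 351 log2 fold changes of 20 named receptor genes under alternatives, 2 changed sign, both of Grid1, which ran from -0.16 to 0.06 as single libraries were left out (0.0281 without NG2 replicate 5, 0.0605 without GFAP replicate 3). Tested genes outside those 20 also crossed 0 as single libraries were left out. These were Grin2a (-0.34 to 0.23), Grin2d (-0.69 to 0.06) and Grin3b (-0.03 to 0.47). Grik4 (-0.38 to 0.04), Gabrb1 (-0.01 to 0.43) and Gabrr2 (-0.47 to 0.24) did so as well. The difference in the Gabra2 share, -1.51 percentage points, was 1.35 from raw counts and -4.71 to 1.23 with single libraries left out, being 0.165 without NG2 replicate 5. The stricter filter gave no value for the scarcer genes. Over all genes, 12 were higher and 12 lower. The counts were 58 and 37 with no filter, 210 and 133 by DESeq2, and 1 and 0 with the replicate block; limma on FPKM gave 3 lower with either pseudocount. Leaving out single libraries gave 3 to 70 higher and 0 to 47 lower, the highest counts (70 and 47) without NG2 replicate 5. Same-numbered libraries deviated together only weakly, which cannot show that they have no shared origin. The block changed no call of a receptor gene. The 17 untested receptor genes did not pass the expression filter, so the main test gives no difference for them.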
